A study of Homo sapiens with 6 samples.

Results

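Genes that mark mesenchymal cells or build caveolae were followed in pancreatic cancer cells in which VCPIP1, a deubiquitinating enzyme, was targeted by siRNA. The members, chosen by gene symbol, are VIM, LUM, FN1, TAGLN, CAV1, CAV2, CAVIN1, ZEB1, SNAI2 and TGFBI. All 10 had a row among the 15832 genes of the table, and 9 of them (all but FN1) reached the mean of 1 TPM over the 6 libraries that was required for testing, as did 10966 genes in all. TPM is the share of a library's transcripts that a gene makes up, scaled for its length, so levels of different genes can be compared within it. The study used AsPC-1, a human pancreatic adenocarcinoma line of epithelial origin. Cells were transfected with a control siRNA (siControl) or an siRNA to VCPIP1 (siVCPIP1), and total RNA of 3 libraries per group was sequenced at 48 h, with no other treatment or genotype given. The labels name no siRNA sequence and no number of siRNAs per target. They also name no separate cultures, so the p-values rest on a spread between libraries that may be technical. Every library is from 1 cell line.

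Epithelial cells that take on mesenchymal features lose cell-cell adhesion, gain the intermediate filament vimentin and lay down matrix. The transcription factors ZEB1 and SNAI2 (Slug) drive that shift by repressing epithelial genes such as CDH1. Caveolae are small flask-shaped pits of the plasma membrane. Their membrane-embedded scaffold is formed by caveolins CAV1 and CAV2 and their coat by cavins, of which CAVIN1 is required for the pits to form. Pancreatic cancer lines can hold epithelial and mesenchymal genes side by side.

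The comparison asks how the transcriptome differs when VCPIP1 is targeted, and most of the tested genes differed. The median TPM over all listed genes lay between 6.18 and 7.44 in siControl and between 1.24 and 2.26 in siVCPIP1, where replicate 3 had the highest value. VCPIP1 itself was at 2.93, 3.06 and 2.24 TPM in siControl and at 0.12, 0.11 and 0.27 TPM in siVCPIP1. Groups were compared with limma on log2(TPM + 1), with p-values adjusted by the Benjamini-Hochberg method over the whole tested table, and an adjusted p under 0.05 is named a call. Of all genes tested 66.0% were called lower and 15.0% higher in siVCPIP1, with a median log2 change of -1.12. Other treatments of the values move that centre. With TPM divided by median-of-ratios size factors (median-scaled values) 45.1% of genes were called lower and 40.3% higher, and the median was -0.14. With quantile-normalized values the shares were 38.8% and 42.2% and the median 0.04. With each library's trend on transcript GC content and length removed (GC-corrected values) they were 31.7% and 37.2% and the median 0.07. VCPIP1 was called lower as deposited (-1.68, limma adjusted p = 2.0e-05), with median-scaled (-1.16) and with quantile-normalized values (-0.55). With GC-corrected values it lay at 0.26 and was not called (limma adjusted p = 0.066), so its direction turned there. With that correction and 0.1 TPM added before the log2 in place of 1 TPM, VCPIP1 was called lower (-0.56, limma adjusted p = 0.016). That setting was added after the data were seen. Each member's change is also given relative to the median of all genes, as the log2 change minus that median. In bulk RNA, fewer cells of a kind and less RNA per cell cannot be told apart.

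In the siControl libraries the members spanned a wide range of levels. VIM stood highest, at a mean of 3724 TPM. CAV1 followed at 462 TPM and TGFBI at 390.5 TPM, and their ranges touched neither each other nor those of VIM and CAV2. CAV2 and CAVIN1, at 135 and 107 TPM, overlapped in their ranges. LUM (56.0 TPM), SNAI2 (13.9 TPM), ZEB1 (8.21 TPM), TAGLN (2.62 TPM) and FN1 (0.027 TPM) followed in that order with no overlap between neighbours. By mean percentile rank among the listed genes VIM lay at 99.8, CAV1 at 98.1 and TGFBI at 97.7. FN1, a staple matrix gene of mesenchymal cells, lay at 5.86. In siVCPIP1 the order was VIM, TGFBI, CAVIN1, CAV1, CAV2, TAGLN, LUM, ZEB1, SNAI2 and FN1, and the pairs CAV1 and CAV2, CAV2 and TAGLN, LUM and ZEB1, and ZEB1 and SNAI2 overlapped in their ranges.

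**Figure D1:**
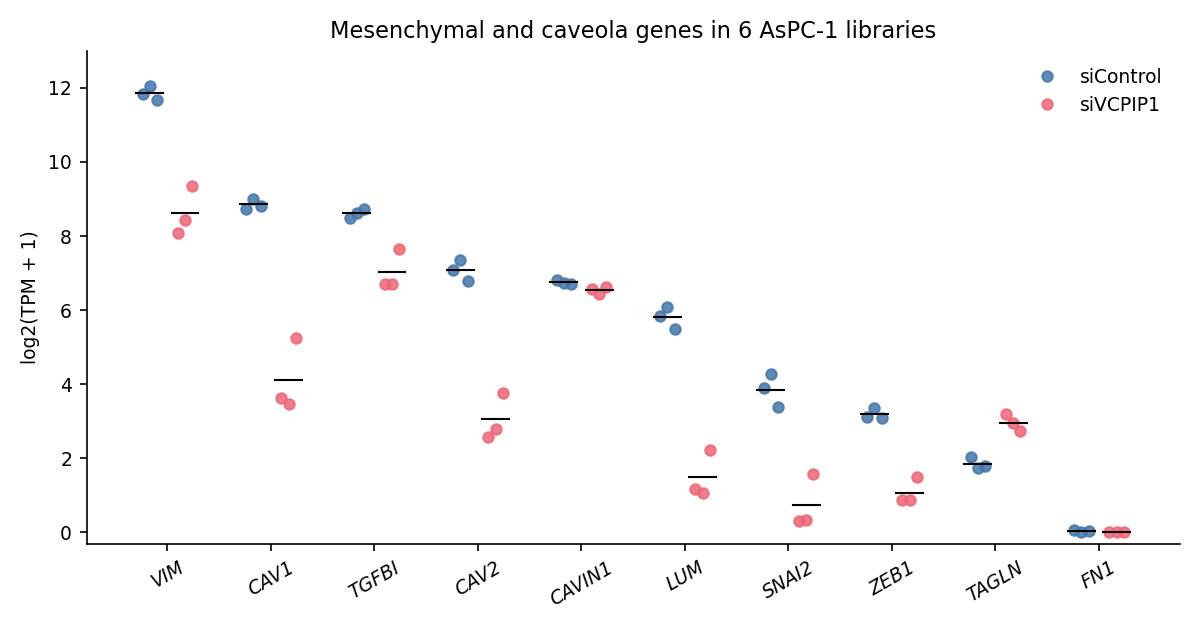
Level of each of the 10 genes in the 6 libraries as log2(TPM + 1), in order of the siControl mean; points are libraries and lines are group means (n = 3). VIM, CAV1, TGFBI, CAV2, LUM, SNAI2 and ZEB1 lie lower in every siVCPIP1 library, TAGLN lies higher, and CAVIN1 lies close to its siControl level.

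Of the 9 members tested, 7 were called lower (VIM, LUM, CAV1, CAV2, ZEB1, SNAI2 and TGFBI), TAGLN was called higher and CAVIN1 was not called. These counts stand beside 66.0% of all genes called lower and 15.0% called higher. Median-scaled values gave 6 lower and 2 higher, quantile-normalized values 7 and 1, and GC-corrected values 6 and 1. The tested members' median log2 change was -3.11, against -1.12 for all genes tested. The groups did not overlap in any of the 9 tested members, 8 of them lower, where 67.9% of all tested genes were lower and 18.2% higher without overlap. For the 7 members called lower, siVCPIP1 replicate 3 held the highest value of its group in 7 of 7, and so it did for 96.5% of all genes called lower. Without that library 8 of 9 members were called lower, where 70.9% of all genes were, and the log2 changes were -5.31 for CAV1, -4.70 for LUM, -4.38 for CAV2, -3.60 for VIM, -3.52 for SNAI2, -2.33 for ZEB1 and -1.91 for TGFBI.

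Vimentin is the type III intermediate filament of mesenchymal cells, encoded by 9 exons at chr10:17228259-17237593 on the plus strand (GRCh38, GENCODE release 29, as for all gene loci here). VIM was measured at 3637, 4263 and 3271 TPM in siControl and at 272, 341 and 653 TPM in siVCPIP1. Each siVCPIP1 library lay below each siControl library, with replicate 3 highest among them. The mean dropped from 3724 ± 502 to 422 ± 203 TPM (SD, n = 3), an 8.82-fold lower level (log2 change -3.23, SE 0.29, limma adjusted p = 2.1e-05). Relative to the median of all genes the change was -2.11. It stayed called lower with median-scaled (-2.001), quantile-normalized (-3.42) and GC-corrected values (-2.60). The mean percentile rank of VIM in siVCPIP1 was 97.6.

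TAGLN (transgelin, SM22) is an actin-binding protein of contractile cells (4 exons, chr11:117199321-117204782, plus strand) and was the member that rose. It was measured at 3.10, 2.32 and 2.44 TPM in siControl and at 8.10, 6.68 and 5.72 TPM in siVCPIP1, a set with no overlap. In contrast to the members that fell, its siVCPIP1 replicate 3 had the lowest value of the group. This was not particular to TAGLN. Among other genes called higher, CAVIN3, MYL9 and KRT19 also had replicate 3 lowest, while ELF3, S100A4 and ITGA5 had it highest. The mean rose from 2.62 ± 0.42 to 6.83 ± 1.20 TPM (SD, n = 3), a 2.61-fold higher level (log2 change 1.11, SE 0.20, limma adjusted p = 0.00069). Relative to the median of all genes its change was 2.23, and it was 2.07 with median-scaled, 2.42 with quantile-normalized and 1.46 with GC-corrected values, each called higher. Its mean percentile rank went from 37.1 to 68.0. The gene shares its last 446 nt (chr11:117204337-117204782) with PCSK7 on the other strand. Since no strand setting is given for the counting, reads there cannot be assigned. The same limit applies where the loci of other members overlap antisense genes, which have no row here. Examples are VIM-AS1 (1727 nt, VIM), ZEB1-AS1 (1953 nt, ZEB1), AC006159.1 (9252 nt, CAV1) and AC002066.1 (212086 nt, CAV2). PCSK7 itself fell as deposited, from 11.9 ± 1.21 to 4.60 ± 2.28 TPM (log2 change -1.27, limma adjusted p = 0.0027), or by -0.15 relative to the median of all genes. It was called lower with GC-corrected values (-0.72). It was not called with median-scaled (-0.21, limma adjusted p = 0.29) or quantile-normalized values (0.30, limma adjusted p = 0.072).

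Both caveolins fell. CAV1, the scaffold protein of caveolae, was measured at 424, 514.5 and 449 TPM in siControl and at 11.3, 10.1 and 36.8 TPM in siVCPIP1. Replicate 3 again stood above the other siVCPIP1 libraries, at 3.44 times their mean, where the median ratio over 7237 genes called lower was 1.94. The mean dropped from 462 ± 46.9 to 19.4 ± 15.1 TPM (SD, n = 3), a 23.9-fold lower level (log2 change -4.74, SE 0.41, limma adjusted p = 2.0e-05), or 43.3-fold without replicate 3. CAV2, which assembles with CAV1, was at 134, 162 and 109 TPM in siControl and at 4.99, 5.97 and 12.6 TPM in siVCPIP1. Its mean dropped from 135 ± 26.3 to 7.85 ± 4.13 TPM, a 17.2-fold lower level (log2 change -4.02, SE 0.30, limma adjusted p = 2.0e-05). Relative to the median of all genes the changes were -3.62 for CAV1 and -2.90 for CAV2. Both stayed called lower under all 15 alternatives run, with GC-corrected changes of -2.50 and -1.72.

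CAVIN1, the coat protein (2 exons, chr17:42402452-42423517, minus strand), was not called. It was measured at 112, 106 and 104 TPM in siControl and at 93.3, 84.9 and 97.2 TPM in siVCPIP1. The siVCPIP1 values were all lower, but by little: the mean went from 107 ± 4.15 to 91.8 ± 6.27 TPM (SD, n = 3; log2 change -0.22, SE 0.12, limma adjusted p = 0.12). Without siVCPIP1 replicate 3 the change was -0.27 and was called lower (limma adjusted p = 0.040). Its direction depended on the scaling. It was called higher with median-scaled values (0.995, limma adjusted p = 0.00057) and was not called at 0.055 with quantile-normalized and 0.089 with GC-corrected values. Its mean percentile rank was 91.6 in siControl and 91.9 in siVCPIP1.

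A ratio of genes within a library does not move when all its values are divided by 1 factor. CAVIN1 stood at 0.265, 0.206 and 0.232 of the CAV1 level in siControl and at 8.27, 8.44 and 2.64 times it in siVCPIP1. The mean log2 ratio went from -2.10 to 2.51, a difference of 4.61, and the ranges did not overlap. A ratio does move with GC content where its genes differ in it, as CAVIN1 (59.9%) and CAV1 (43.0%) do, and the difference between their GC-corrected changes was 2.59. The ratio of CAV1 to CAV2 was 3.15, 3.18 and 4.10 in siControl and 2.26, 1.69 and 2.92 in siVCPIP1, a log2 difference of -0.63 with no overlap (-0.78 between GC-corrected changes). VIM, set against the epithelial filament KRT18, was at 0.694, 0.954 and 0.647 of it in siControl and at 0.036, 0.043 and 0.094 in siVCPIP1, a log2 difference of -3.84 (-2.86 between GC-corrected changes). Each of the 3 ratios gave a two-sided exact permutation p of 0.1, the smallest that 3 libraries against 3 allow, and 0.1 after adjustment over the 3. KRT18 overlaps KRT8 by 1084 nt and gives its name to 68 pseudogenes in GENCODE release 29, so its TPM may include reads that cannot be placed.

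**Figure D2:**
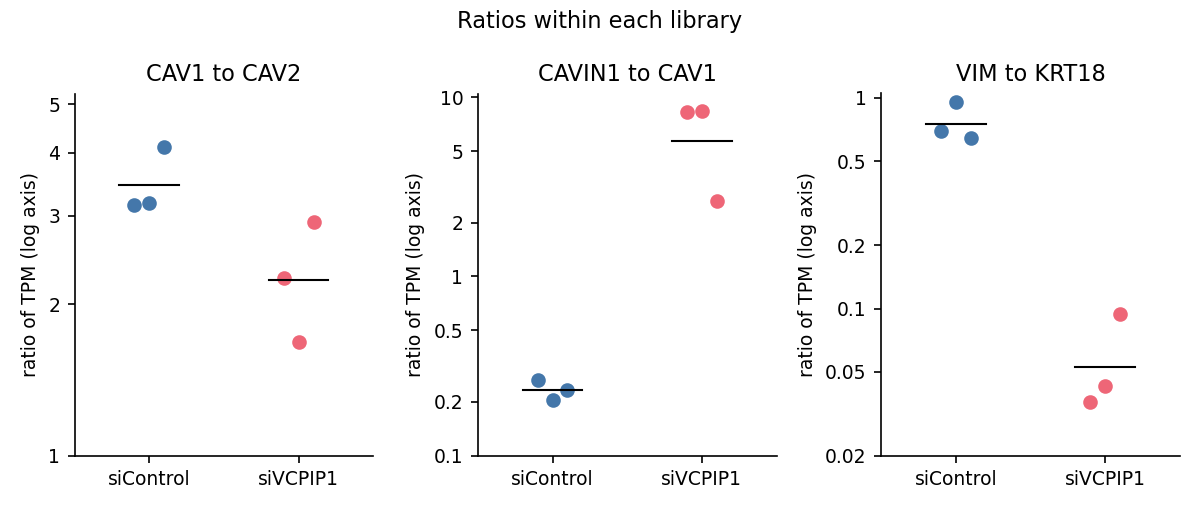
Ratio of TPM between 2 genes within each library, on log axes; points are libraries and lines are the geometric means of the 3 libraries of a group. CAVIN1 to CAV1 lies between 0.206 and 0.265 in siControl and between 2.64 and 8.44 in siVCPIP1, while CAV1 to CAV2 moves from between 3.15 and 4.10 to between 1.69 and 2.92.

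CAV2 and CAV1 are neighbours on the plus strand of chromosome 7, with 16243 nt between the end of CAV2 (chr7:116287380-116508541) and the start of CAV1 (chr7:116524785-116561184), each with 3 exons in the transcript used. Since these neighbours fell together, the bases around a RefSeq start of each are shown, from 250 before to 50 after it, with those of VIM and TGFBI as members that also fell. RefSeq promoters (build GRCh38.p14) were matched for 6 of the 10 members, with 15 starts among them. Capitals mark GGGCGG, the GC box, on either strand (printed as CCGCCC where it lies on the other strand).
CAV2, chr7:116499488-116499787, plus strand: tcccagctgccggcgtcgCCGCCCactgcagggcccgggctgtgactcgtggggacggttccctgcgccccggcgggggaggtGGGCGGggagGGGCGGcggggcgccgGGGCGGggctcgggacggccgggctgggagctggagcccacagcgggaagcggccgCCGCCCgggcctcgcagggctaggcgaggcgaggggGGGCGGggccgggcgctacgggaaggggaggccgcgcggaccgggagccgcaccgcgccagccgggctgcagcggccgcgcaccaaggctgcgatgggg
CAV1, chr7:116524759-116525058, plus strand: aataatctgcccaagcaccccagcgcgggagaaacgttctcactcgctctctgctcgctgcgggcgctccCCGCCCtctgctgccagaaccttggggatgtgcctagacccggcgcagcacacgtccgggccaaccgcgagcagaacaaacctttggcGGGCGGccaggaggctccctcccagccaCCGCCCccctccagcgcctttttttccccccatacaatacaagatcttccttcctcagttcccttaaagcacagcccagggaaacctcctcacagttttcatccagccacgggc
VIM, chr10:17227991-17228290, plus strand: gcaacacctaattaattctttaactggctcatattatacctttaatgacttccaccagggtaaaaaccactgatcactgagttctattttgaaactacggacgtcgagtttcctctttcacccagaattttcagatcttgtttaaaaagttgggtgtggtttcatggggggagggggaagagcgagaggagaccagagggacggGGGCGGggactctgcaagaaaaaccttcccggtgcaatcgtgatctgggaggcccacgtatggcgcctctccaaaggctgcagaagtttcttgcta
TGFBI, chr5:136028738-136029037, plus strand: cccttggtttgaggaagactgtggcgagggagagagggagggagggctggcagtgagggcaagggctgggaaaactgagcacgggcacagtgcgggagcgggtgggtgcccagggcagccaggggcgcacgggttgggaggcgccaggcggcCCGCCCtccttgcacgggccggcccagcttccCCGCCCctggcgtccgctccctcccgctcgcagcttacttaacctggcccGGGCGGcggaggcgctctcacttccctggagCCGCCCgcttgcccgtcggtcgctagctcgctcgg

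The CAV2 window holds 6 GC boxes and the CAV1 window 3, with a GC content of 82.7% and 62.3%. The TGFBI window holds 4 GC boxes and the VIM window 1, with a GC content of 72.7% and 48.0%. The median over 35116 promoter windows was 58.7%. Over all the members' starts, 13 of 15 hold a GC box, as do 45.0% of all windows. The 15 starts belong to 6 genes and 7 of the starts are of ZEB1. Windows of CAV1 overlap, so the 15 are not independent, and they were not matched to all windows in GC content. Each of the 6 genes has a start with a GC box, including FN1, which was near 0 TPM in both groups. GGAATG, the core of the site that TEAD factors (the DNA-binding partners of YAP) recognise, was found on either strand in 1 of the 15, a start of ZEB1, and in 14.03% of all windows. No match of TATAAA or of the CArG box was found in the 15. These are matches of letters and not measured binding.

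Among the matrix members LUM and TGFBI fell (TGFBI lost its call with median-scaled values), and FN1 was near 0 TPM throughout. LUM encodes lumican, a small leucine-rich proteoglycan that binds collagen fibrils, in 3 exons at chr12:91102629-91111831 on the minus strand. It was measured at 56.7, 67.4 and 44.05 TPM in siControl and at 1.24, 1.08 and 3.71 TPM in siVCPIP1, again with replicate 3 above the other siVCPIP1 libraries. The mean dropped from 56.0 ± 11.7 to 2.01 ± 1.47 TPM (SD, n = 3), a 27.9-fold lower level (log2 change -4.33, SE 0.33, limma adjusted p = 2.0e-05), or 48.3-fold without replicate 3. Relative to the median of all genes the change was -3.21. LUM stayed called lower with median-scaled (-3.33), quantile-normalized (-3.20) and GC-corrected values (-1.98).

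TGFBI, a secreted integrin-binding protein first found as a TGF-beta-induced gene (17 exons, chr5:136028895-136063818, plus strand), was at 359, 390.4 and 422 TPM in siControl and at 103, 103 and 200.5 TPM in siVCPIP1. Its groups did not overlap, and replicate 3 was again highest in siVCPIP1. The mean dropped from 390.5 ± 31.3 to 135.5 ± 56.3 TPM, a 2.88-fold lower level (log2 change -1.59, SE 0.25, limma adjusted p = 0.00032). That was -0.47 relative to the median of all genes. With median-scaled values the change was -0.37 and no longer called (limma adjusted p = 0.075), while it was called lower at -1.47 with quantile-normalized and -0.74 with GC-corrected values.

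FN1 encodes fibronectin, the matrix glycoprotein that cells grip through integrins (chr2:215360440-215436172, minus strand). It was listed at 0.04, 0.01 and 0.03 TPM in siControl and at 0.01, 0 and 0 TPM in siVCPIP1. These values lie under the level required for testing, the groups overlap, and no direction is given. Without the filter its log2 change was -0.033 (limma adjusted p = 0.29).

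Both transcription factors were lower in siVCPIP1 as deposited. Their mean percentile ranks in siControl were 53.2 (ZEB1) and 61.9 (SNAI2). ZEB1 (9 exons, chr10:31318495-31529814, plus strand) was measured at 7.73, 9.32 and 7.57 TPM in siControl and at 0.82, 0.84 and 1.80 TPM in siVCPIP1. Its mean dropped from 8.21 ± 0.97 to 1.15 ± 0.56 TPM (SD, n = 3), a 7.12-fold lower level (log2 change -2.12, SE 0.22, limma adjusted p = 3.2e-05). Relative to the median of all genes this was -0.999, and no library of one group reached the other. ZEB1 was called lower with median-scaled (-1.25) and quantile-normalized values (-0.52). With GC-corrected values it lay at 0.019 (limma adjusted p = 0.87), and at 0.18 with a pseudocount of 0.1 TPM as well (limma adjusted p = 0.25), a setting added after the data were seen.

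SNAI2 was at 13.96, 18.2 and 9.48 TPM in siControl and at 0.24, 0.27 and 1.97 TPM in siVCPIP1. Its replicate 3 stood at 7.73 times the mean of the other siVCPIP1 libraries, the widest such gap among the members, although it too lay below every siControl value. The mean dropped from 13.9 ± 4.37 to 0.827 ± 0.99 TPM, a 16.8-fold lower level (log2 change -3.11, SE 0.37, limma adjusted p = 6.6e-05), or 54.4-fold without replicate 3. Relative to the median of all genes it was -1.99. The change was -2.35 with median-scaled, -1.71 with quantile-normalized and -0.76 with GC-corrected values, called lower in each. The pseudocount of 1 TPM limits the log2 fall of genes this low, and with 0.1 TPM the changes of SNAI2 and ZEB1 were -4.40 and -2.81.

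ZEB1 binds CACCTG, a form of E-box that SNAI2 also recognises, and 1 of its 7 listed starts has 3 copies within 250 bases before to 50 after it. That window is shown with the copies in capitals (CAGGTG on the other strand).
ZEB1, chr10:31318966-31319265, plus strand: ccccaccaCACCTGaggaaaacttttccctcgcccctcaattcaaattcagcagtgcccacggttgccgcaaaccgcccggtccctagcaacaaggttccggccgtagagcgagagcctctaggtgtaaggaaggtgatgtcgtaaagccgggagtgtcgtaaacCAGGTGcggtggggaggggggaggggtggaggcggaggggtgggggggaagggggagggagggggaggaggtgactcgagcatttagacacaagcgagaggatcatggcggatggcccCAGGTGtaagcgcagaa
The motif was present on either strand in 2 of the 15 starts of members, both of them of ZEB1, and in 20.6% of all windows.

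**Figure D3:**
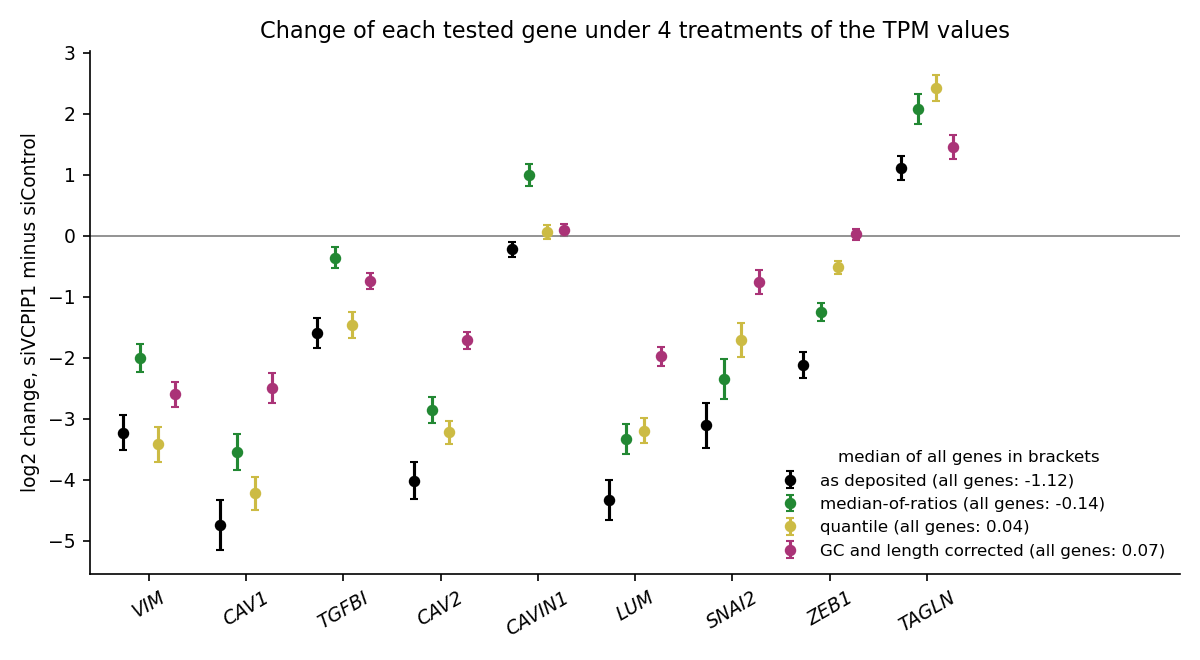
Log2 change (siVCPIP1 minus siControl, log2(TPM + 1) scale) of the 9 tested members under 4 treatments of the values, with standard errors from limma; the median of all genes under each is in the key. CAV1, CAV2, LUM, SNAI2, TGFBI and VIM stay below 0 under all 4 and TAGLN above it, CAVIN1 crosses 0, and ZEB1 reaches 0.019 with GC-corrected values.

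Over all genes tested, the change in TPM was graded by the GC content of the transcript, and the members lay along that grade and around it. Across 10905 genes, which are not independent replicates and share the same libraries, log2 change and GC content correlated at r = 0.723 (Spearman's rho 0.736). Across the 9 members tested r was 0.758 (rho 0.617). Genes were divided into 10 equal bins by GC content. LUM has the lowest GC content of the tested members (36.3%), followed by ZEB1 (39.8%), CAV2 (40.7%), SNAI2 (41.8%) and CAV1 (43.0%). TGFBI and VIM have 53.8% and 53.9%, TAGLN has 56.3% and CAVIN1 59.9%.

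In the bins of the 5 members lowest in GC, the median log2 change ran from -2.23 to -2.05, and from 97.25% to 97.98% of genes were called lower. ZEB1, at -2.12, lay next to the median of its bin (-2.17). SNAI2, at -3.11, lay between the median of its bin (-2.05) and its 5th percentile (-3.56). LUM, CAV2 and CAV1 lay below the 5th percentile of theirs, which was -3.52, -3.73 and -3.56. VIM, TGFBI and TAGLN share a bin with a median of -0.43 and a 5th to 95th percentile range of -2.33 to 0.77. Within it VIM (-3.23) lay below that range, TGFBI (-1.59) inside it and TAGLN (1.11) above it. CAVIN1 (-0.22) lay inside the range of its bin (-1.32 to 1.16, median 0.21). The bins were not matched for level. Since log2(TPM + 1) limits the fall of low genes, a gene's place in its bin also depends on its siControl level. The part that GC content has in these changes was not tested beyond the GC-corrected value given with each.

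**Figure D4:**
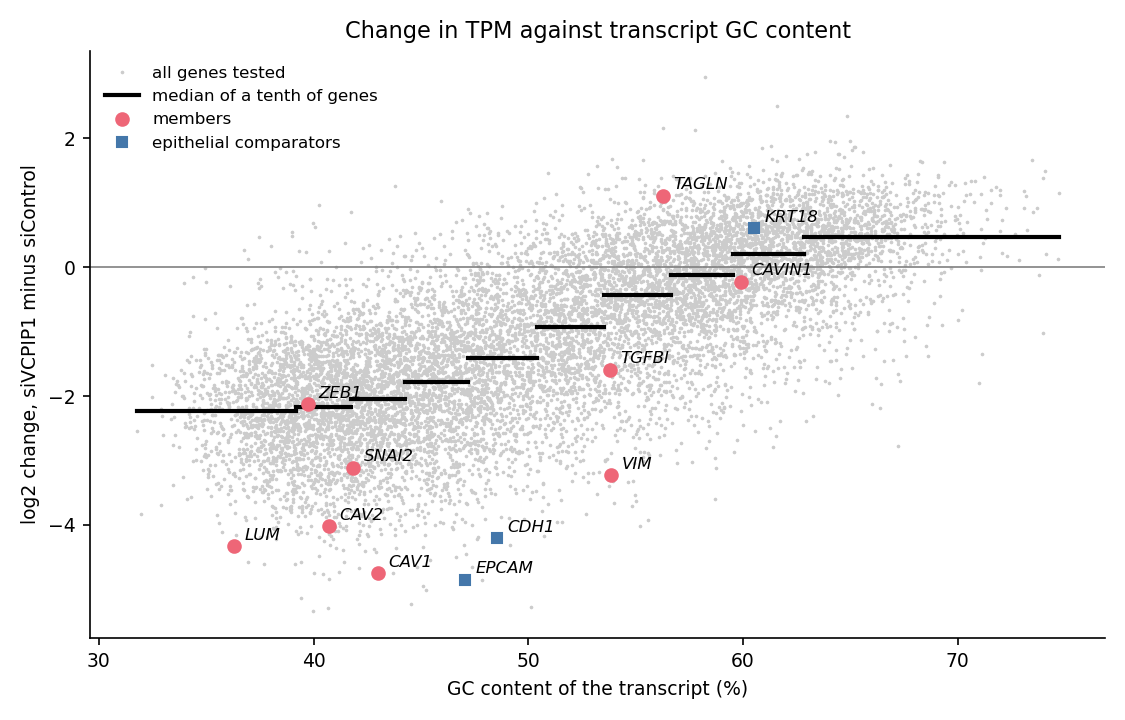
Log2 change (siVCPIP1 minus siControl) against transcript GC content (%) for genes tested, with the 9 tested members and 3 epithelial genes marked; bars are medians of 10 equal bins. ZEB1 and CAVIN1 lie near the bars, CAV1, CAV2, LUM and VIM lie far below them, and TAGLN lies above.

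Other genes of the same processes were taken from 10 lists, whose counts are to be read against the shares of all genes called lower and higher. These were 66.0% and 15.0% as deposited, 45.1% and 40.3% with median-scaled, 38.8% and 42.2% with quantile-normalized and 31.7% and 37.2% with GC-corrected values. The remaining caveola proteins went both ways. Of 10 on the list, 7 were tested, with a median GC content of 61.1%. In the GC bin around that value, 20.55% of genes were called lower and 39.7% higher. PACSIN2, EHD4 and ROR1 fell (ROR1 was called higher, at 0.66, with GC-corrected values), CAVIN3 and PACSIN3 rose, and EHD1 and EHD2 were not called. With GC-corrected values PACSIN3 lost its call (0.11, limma adjusted p = 0.31), while EHD1 and EHD2 were called higher (0.39 and 0.38). CAVIN3, a cavin that binds CAVIN1, rose from 387 ± 15.1 to 852 ± 118 TPM (log2 change 1.13, limma adjusted p = 6.2e-05). PACSIN2, a membrane-bending protein of the caveola neck, fell from 32.7 ± 1.69 to 7.75 ± 2.83 TPM (-1.99), and the ATPase EHD4 from 26.04 ± 2.36 to 7.77 ± 2.07 TPM (-1.65). ROR1, a receptor known to help hold CAV1 and CAVIN1 together, was at 2.16 ± 0.52 and 0.357 ± 0.067 TPM (-1.21), and was not called with quantile-normalized values (0.024). EHD2, which sits at the neck of caveolae, was at 64.9 ± 5.51 and 77.3 ± 1.20 TPM (0.25, limma adjusted p = 0.099). The list had 3 lower and 4 higher with median-scaled values, and 2 and 4 with quantile-normalized and with GC-corrected values. The other family members CAV3, CAVIN2 and CAVIN4 had group means of at most 0.18 TPM.

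Most tested matrix genes fell. Of 26 genes 24 were listed and 9 reached the level for testing, and 8 of these fell and 0 rose, beside 66.0% and 15.0% of all genes, with a median of -1.74 against -1.12. Tenascin-C (TNC) fell from 33.6 ± 3.86 to 1.84 ± 1.07 TPM (log2 change -3.66), the latent TGF-beta binding protein LTBP1 from 17.2 ± 2.07 to 1.07 ± 0.62 TPM (-3.17), and the protease inhibitor SERPINE2 from 43.3 ± 8.15 to 4.58 ± 3.08 TPM (-3.10). With median-scaled values 5 were lower and 1 higher, with quantile-normalized values 7 and 2, and with GC-corrected values 8 and 1. Fibrillar collagen genes COL1A1 and COL1A2 were at 0.92 and 0.07 TPM in siControl. Of the small leucine-rich proteoglycans beside LUM, DCN and BGN were at 0.037 and 0.123 TPM in siControl. PRELP was the 1 tested member of that list, at 4.84 ± 0.55 and 6.98 ± 1.77 TPM (log2 change 0.43, limma adjusted p = 0.11), and it was called higher at 1.47 with median-scaled, 1.87 with quantile-normalized and 1.46 with GC-corrected values.

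Of fibronectin-binding integrins and their adaptors, 12 of 14 were tested, 9 fell and ITGA5 rose. That share and the median of -1.33 were near those of all genes (66.0% lower, median -1.12). The beta 1 integrin ITGB1 fell from 355 ± 34.6 to 9.12 ± 6.89 TPM (log2 change -5.34, limma adjusted p = 2.0e-05), vinculin (VCL) from 49.9 ± 11.5 to 4.96 ± 2.75 TPM (-3.16) and ITGAV from 11.95 ± 2.17 to 0.687 ± 0.46 TPM (-2.96). ITGA5, the alpha chain that pairs with ITGB1 in the main fibronectin receptor, went from 59.03 ± 3.74 to 73.8 ± 0.98 TPM (0.32, limma adjusted p = 0.042). Median-scaled values gave 6 lower and 3 higher, quantile-normalized values 7 and 2, and GC-corrected values 5 and 5.

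Actin-binding and contractile genes beside TAGLN were split. Of 14 tested, 10 fell and MYL9, MYL6 and TPM2 rose, near the 66.0% and 15.0% of all genes, while the split was 6 and 7 with median-scaled values and 8 and 3 with both quantile-normalized and GC-corrected values. The myosin light chain MYL9, like TAGLN a smooth muscle gene, rose from 1.49 ± 0.40 to 5.10 ± 1.04 TPM (log2 change 1.29, limma adjusted p = 0.00032), and was called higher under these 3 treatments as well. TPM2 lost its call with GC-corrected values (0.054, limma adjusted p = 0.61). The calponin CNN3 fell from 56.5 ± 8.50 to 4.997 ± 3.39 TPM (-3.39), the actin cross-linker ACTN1 from 95.1 ± 18.5 to 13.04 ± 8.45 TPM (-2.92) and the tropomyosin TPM4 from 99.0 ± 9.88 to 14.6 ± 5.57 TPM (-2.73). TAGLN2, the paralog of TAGLN in non-muscle cells and named here after its values were seen, fell from 759 ± 26.8 to 498 ± 98.1 TPM (-0.63), but was called higher with median-scaled values (0.61). ACTA2 and CNN1, defining smooth muscle genes, stayed at or under 0.86 TPM in every library.

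Among other intermediate filament genes and their linkers, 3 of 11 tested fell and 6 rose, beside 66.0% and 15.0% of all genes. The median GC content of those tested was 61.4%. In the GC bin around that value, 20.55% of genes were called lower and 39.7% higher. The nuclear lamins LMNB1 and LMNB2 fell from 59.03 ± 7.11 to 2.65 ± 2.23 TPM (log2 change -4.20) and from 71.8 ± 4.56 to 23.6 ± 8.54 TPM (-1.62), and the vimentin-binding filament gene SYNM from 1.96 ± 0.20 to 0.173 ± 0.084 TPM (-1.34). SYNM was not called with GC-corrected values (-0.18, limma adjusted p = 0.18). The epithelial keratin KRT19 rose from 4229 ± 391 to 8366 ± 800 TPM (0.98, limma adjusted p = 9.7e-05). KRT18 rose from 4923 ± 404 to 7496 ± 503 TPM (0.61, limma adjusted p = 0.0011), a call lost with quantile-normalized values (0.16, limma adjusted p = 0.13). Median-scaled values gave 3 lower and 8 higher, quantile-normalized values 3 and 5, and GC-corrected values 2 and 6.

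Of 14 other mesenchymal markers, 8 lay under the level for testing. Of the 6 tested, NT5E, MMP14, CD44 and AXL fell and S100A4 and ENG rose, beside 66.0% and 15.0% of all genes. The ectonucleotidase NT5E (CD73) fell from 33.8 ± 7.26 to 3.36 ± 1.82 TPM (log2 change -3.05) and the membrane protease MMP14 from 148 ± 3.48 to 35.7 ± 20.5 TPM (-2.17). The hyaluronan receptor CD44 fell from 313 ± 21.6 to 93.6 ± 29.5 TPM (-1.77), but lay at 0.0027 with GC-corrected values (limma adjusted p = 0.98). The calcium-binding protein S100A4 went from 4041 ± 184 to 5410 ± 114 TPM (0.42), and was not called with quantile-normalized values (0.065, limma adjusted p = 0.56). The receptor kinase AXL fell by 1.56 on the log2 scale and was not called with median-scaled values (-0.34, limma adjusted p = 0.092). The list had 3 lower and 2 higher with median-scaled and with GC-corrected values, and 4 and 1 with quantile-normalized values. N-cadherin (CDH2), named here after its values were seen, was at a mean of 0.013 TPM in siControl.

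Epithelial genes that ZEB1 and SNAI2 are known to oppose went both ways. Of 16 tested, 12 fell, 3 rose (ELF3, LLGL2 and PKP3) and CRB3 was not called, beside 66.0% lower and 15.0% higher of all genes, with a median of -0.65 against -1.12. With GC-corrected values PKP3 lost its call (0.072, limma adjusted p = 0.49) and CRB3 was called lower (-0.95, limma adjusted p = 0.0039). The direction turned with the scaling, to 6 lower and 8 higher with median-scaled and 5 and 7 with quantile-normalized values, while GC-corrected values gave 9 and 4. E-cadherin (CDH1), the adhesion molecule of epithelia and a textbook target of both repressors, was at 27.5, 31.7 and 27.6 TPM in siControl and at 0.42, 0.28 and 1.33 TPM in siVCPIP1 (log2 change -4.21, SE 0.25, limma adjusted p = 2.0e-05). EPCAM, the epithelial cell adhesion molecule, was at 162, 196 and 157 TPM and then at 3.19, 2.99 and 11.7 TPM (-4.85, SE 0.40, limma adjusted p = 2.0e-05). Both were also called lower with median-scaled, quantile-normalized and GC-corrected values (the last at -2.68 and -3.10). The desmosome gene DSP fell by 3.02 on the log2 scale. The epithelial transcription factor ELF3 rose from 75.1 ± 1.64 to 131 ± 24.2 TPM (0.78, limma adjusted p = 0.0016), and was called higher under all 3 other treatments.

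Of the other EMT transcription factors 4 of 8 were listed and SNAI1 alone was tested, at 15.05 ± 1.74 and 18.3 ± 8.35 TPM (log2 change 0.19, limma adjusted p = 0.56). It was called higher with median-scaled (1.34) and quantile-normalized values (1.45), and lay at 0.12 with GC-corrected values (limma adjusted p = 0.65). ZEB2, the paralog of ZEB1, was at 0.013 TPM in siControl. In the TGF-beta pathway, which induces TGFBI and SNAI2, 11 of 12 tested genes fell, beside 66.0% of all genes, with a median of -1.59 against -1.12. The ligand TGFB1 rose, from 161 ± 14.6 to 255 ± 25.3 TPM (0.66, limma adjusted p = 0.0015). The receptor TGFBR2 fell from 33.3 ± 4.59 to 2.17 ± 1.27 TPM (-3.50), SMAD3 from 48.1 ± 3.17 to 11.1 ± 5.29 TPM (-2.10) and the inhibitory SMAD6 from 8.84 ± 1.01 to 2.87 ± 0.83 TPM (-1.36, but 0.26 and not called with quantile-normalized values). Lower and higher calls numbered 10 and 1 with median-scaled, 7 and 2 with quantile-normalized, and 6 and 4 with GC-corrected values.

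**Figure D5:**
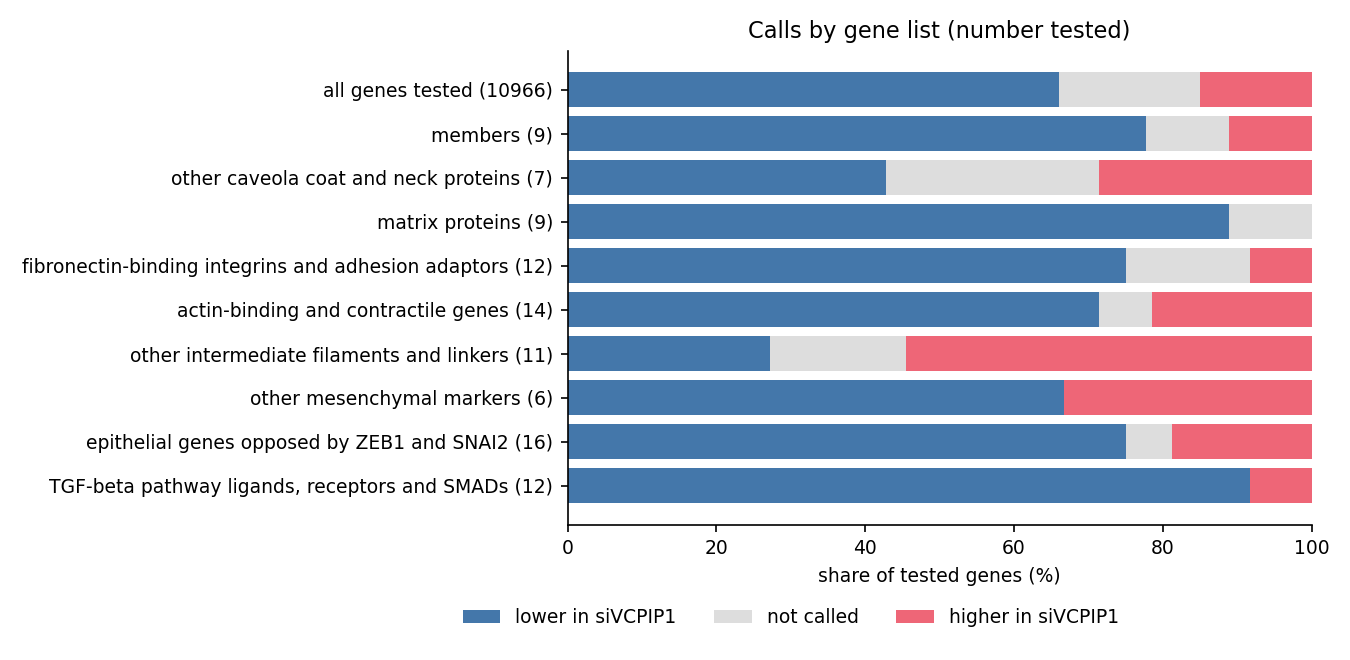
Share (%) of tested genes called lower, not called and called higher in siVCPIP1 (limma, values as deposited), for all genes, the members and each context list with at least 5 tested genes. The matrix, integrin and TGF-beta lists have 0 of 9, 1 of 12 and 1 of 12 genes called higher, beside 15.0% of all genes. The filament list has the most of any list shown (6 of 11).

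Of 7 markers of ductal carcinoma cells, the keratins KRT8, KRT18 and KRT19 were abundant in both groups. The summed level of the 7 ran from 13862 to 15982 TPM in siControl and from 20933 to 23734 TPM in siVCPIP1. Nearly all of it was these keratins. Of these 7 markers, 4 fell (EPCAM, CDH1, MUC1 and CEACAM6) and the 3 keratins rose, beside 66.0% and 15.0% of all genes. The 4 that fell had siVCPIP1 means of 5.96, 0.677, 20.4 and 0.307 TPM. KRT8 lay at -0.12 and was not called with quantile-normalized values, and CEACAM6 was called higher, at 0.55, with GC-corrected values. MUC1 was not called with median-scaled values (-0.22, limma adjusted p = 0.51), nor CEACAM6 with quantile-normalized values (-0.14, limma adjusted p = 0.29). Markers of fibroblasts summed to between 1.33 and 1.73 TPM in siControl and between 0.45 and 0.88 TPM in siVCPIP1 over 7 of 8 genes listed, and 6 of the 7 stayed under 1 TPM in every library. Smooth muscle markers summed to at most 1.20 TPM. The part of other cell types in the members' changes was not tested. Of the endothelial and leukocyte markers, PECAM1, VWF, PTPRC and CD79A stayed at or under 1.27 TPM, while ENG and CD68, which other cells also express, reached 29.6 and 158 TPM.

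The genes closest in pattern to a member were found by the root mean square difference of log2(TPM + 1) over the 6 libraries, after each gene's mean was taken out. For CAV1 they were EPCAM (0.075), PRSS23 (0.12) and CD9 (0.13). For VIM they were PPFIA1 (0.056), THAP12 (0.064) and RAB5A (0.068). Within the set, LUM was nearest to both CAV1 (0.32) and CAV2 (0.18), VIM and SNAI2 were nearest to each other (0.19), and so were ZEB1 and TGFBI (0.31) and TAGLN and CAVIN1 (0.69). FN1, not tested, has no such neighbours. With 2 groups of 3 libraries, this measure mostly ranks genes by the size of their difference between the groups.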

How the data were processed

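The deposited table gives TPM per gene symbol for the 6 libraries, a unit named by the authors in the column headers, with 2 decimals. The genome was GRCh38.p13 according to the submitters' processing notes. The strand setting was not given in the sources used here, nor were the aligner, counting tool, annotation and filters. TPM carries no read number, so depth is unknown and counting intervals cannot be given.

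Genes averaging 1 TPM or more over the libraries were fitted as log2(TPM + 1) in limma 3.58.1 (R 4.3.3) with group as the term, eBayes with trend, two-sided tests and Benjamini-Hochberg adjustment over 10966 genes (threshold 0.05). The procedure was also run on simulated data, with independent noise and few changed genes. That setting is unlike these data, so it does not vouch for the calls here. Where a GC trend was simulated, the uncorrected fit made more false calls than the corrected one. The correction removes a trend of that form by design, so this does not vouch for the GC-corrected values. The log2(TPM + 1) scale understates changes of low genes. Ratios were compared by exact permutation tests (scipy 1.17.1). GENCODE release 29 (GRCh38) supplied GC content, length and coordinates, with 1 coding transcript chosen for each of 10905 tested genes (99.4%). The correction removed each library's spline trend on GC content and log2 length (5 and 3 degrees of freedom, with their product). Promoters were taken from RefSeq (GRCh38.p14). The alternatives were 2 scalings, that correction, other pseudocounts and filters, a replicate block and leaving out each library.

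The members and lists were chosen with earlier results of these data known. The text names the members, VCPIP1, the epithelial comparators KRT18 and CDH1, the genes closest in pattern to VIM and CAV1, and from each of 10 context lists up to 3 called genes with the largest change, up to 2 going the other way (mean of at least 5 TPM) and all called in a direction with 5 or fewer. PCSK7, genes not called or under the filter, and markers were added to complete a count or a role. ESRP1 and other list genes without a row are not analysed here.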

Additional observations from a re-analysis of the deposited data

How the results depend on the processing

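In the settings run, genes called numbered 8887, between 7987 and 9623 when 1 library was left out, 9367 after median-of-ratios scaling, 8883 after quantile normalization and 7516 after GC content and length correction. Of those called, the lower ones numbered 7241 as deposited against 4951, 4258 and 3460 in the last 3 settings, and the higher ones 1646 against 4416, 4625 and 4056. Members called lower numbered 7, with 6 after median-of-ratios scaling (TGFBI lost, at -0.37) and after GC content and length correction (ZEB1 lost), and 8 without siVCPIP1 replicate 3, which brought in CAVIN1 (-0.27). CAVIN1 turned to 0.995 after median-of-ratios scaling, 0.055 after quantile normalization, 0.089 after GC content and length correction, with or without the replicate block, and 0.16 when a pseudocount of 0.1 TPM was added to that correction. ZEB1 turned to 0.019 after the correction, with or without the block, and to 0.18 with that pseudocount. The cause of these turns was not tested. The correction with a pseudocount of 0.1 TPM was chosen after seeing the data. CAV1, CAV2, VIM, LUM and SNAI2 kept their direction and call in all 15 alternatives, and TAGLN in the 14 that tested it (a filter of 5 TPM left it and ZEB1 out). The log2 ratio differences ranged from -0.82 to -0.43 for CAV1 to CAV2, from 4.33 to 5.17 for CAVIN1 to CAV1 and from -4.26 to -3.57 for VIM to KRT18 with 1 library left out. The difference between GC-corrected changes, an alternative chosen after seeing the data, was -0.78, 2.59 and -2.86 for these 3 ratios. Same-numbered libraries of the groups had correlated deviations of r = 0.531, -0.267 and 0.164, so the numbers were not taken as pairs. With the replicate block 8671 genes were called, and 7 members were called lower. The unknown read depth limits what can be said of FN1 and of ZEB1 and SNAI2 in siVCPIP1.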
